A study of Saccharomyces cerevisiae BY4741 with 16 samples.

Results

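The step between 20 and 40 min of rapamycin was followed for H3K4me3, trimethylated lysine 4 of histone H3, in budding yeast (*Saccharomyces cerevisiae*). It was read as the log2 ratio of the 40 min signal over the 20 min signal of each gene. All 5218 genes with a value in each of the 8 columns of the gene table were used, which is all 5218 genes of the series, and 2 of its 16 libraries. The 0 min library was not used.

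The series asks how H3K4me3 and H3K36me3 behave at intervals after RNA polymerase II (RNAPII) is taken out of the nucleus by anchor-away, a method in which rapamycin joins a tagged protein of the nucleus to an exported ribosomal subunit. Both groups, H3K4me3 at 40 min and H3K4me3 at 20 min, are immunoprecipitated DNA of log-phase cells of 1 strain grown in YPD with rapamycin at 1 ug/mL. The strain is BY4741, MATa, with his3D1, leu2D0, ura3D0, tor1D1, fpr1D and the anchor RPL13-2xFKBP12-NATMX6. A spike-in of 25% *Schizosaccharomyces pombe* cells was used. The strain label names no tagged RNAPII subunit, so the depletion is taken from the series design.

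H3K4me3 is placed by Set1 within the COMPASS complex, which acts where RNAPII starts transcribing, with help from ubiquitin on histone H2B and from the Paf1 complex. It marks the beginning of active genes and is removed by the demethylase Jhd2 or diluted as nucleosomes are exchanged. H3K36me3 is placed further along the gene body by Set2, which travels with elongating polymerase.

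There is 1 library per time, so there is no replicate error, no test and no p-value. What follows describes single libraries, these 2 and, beside them, H3K4me3 at 60 min and H3K36me3 at 20 and 40 min, and any difference may lie within the spread that replicate cultures would have shown. Signal over a whole culture was measured, so less mark in every cell and loss of the mark in some cells cannot be told apart. Whether the deposited signal was divided by gene length is not given in the sources used here, so levels of different genes serve here only to filter and order them, and that order may rest in part on length.

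The step was small at most genes. The median signal was 4.86 at 40 min, against 4.67 at 20 min, and the summed signal was 24034 at 40 min, against 23092 at 20 min. The median gene had a log2 ratio of 0.06, a fold of 1.04, with quartiles of -0.04 and 0.15. As deposited, 3408 genes were higher at 40 min and 1810 were lower, so 65.3% were higher. That direction rests on how the libraries are scaled. With both libraries set to equal totals, 49.5% of genes were higher at 40 min, with a median log2 ratio of -0.0021. With both set to the same median over the 261 genes of lowest signal, 78.9% were higher, with a median of 0.12. Gene values below are for this reason centred, as the log2 ratio minus that of the median gene, called the relative step.

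A fold limit was used in place of a test. A gene passed it when its ratio stood at least 25% above that of the median gene, or as far below on the log scale, which is a relative step of 0.322 in size. The limit was applied to 4823 genes, those with a mean signal over both times of at least 25% of the median gene's mean. Of these, 66.9% were higher at 40 min as deposited. Relative to the median gene, 64 genes were past the limit on the higher side, 1.33% of them, and 69 on the lower side, 1.43% of them. Relative steps of the higher genes spanned 0.32 to 1.48, and those of the lower genes spanned -0.72 to -0.32. The quartiles over all kept genes were -0.09 and 0.10. The filter reads the mean of both times, so a gene can be kept through 1 of them. Of the higher genes 4 were under the floor of 1.19 at 20 min, namely YMR013W-A, *PIR1*, *PST1* and *TFS1*, and these had to differ to be kept. Of the lower genes 1, *ATG31*, was just under it at 40 min, with 1.1926 against 1.1937. Past a fold of 1.5 there were 8 higher genes (0.166%) and 1 lower gene (0.0207%).

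**Figure D1:**
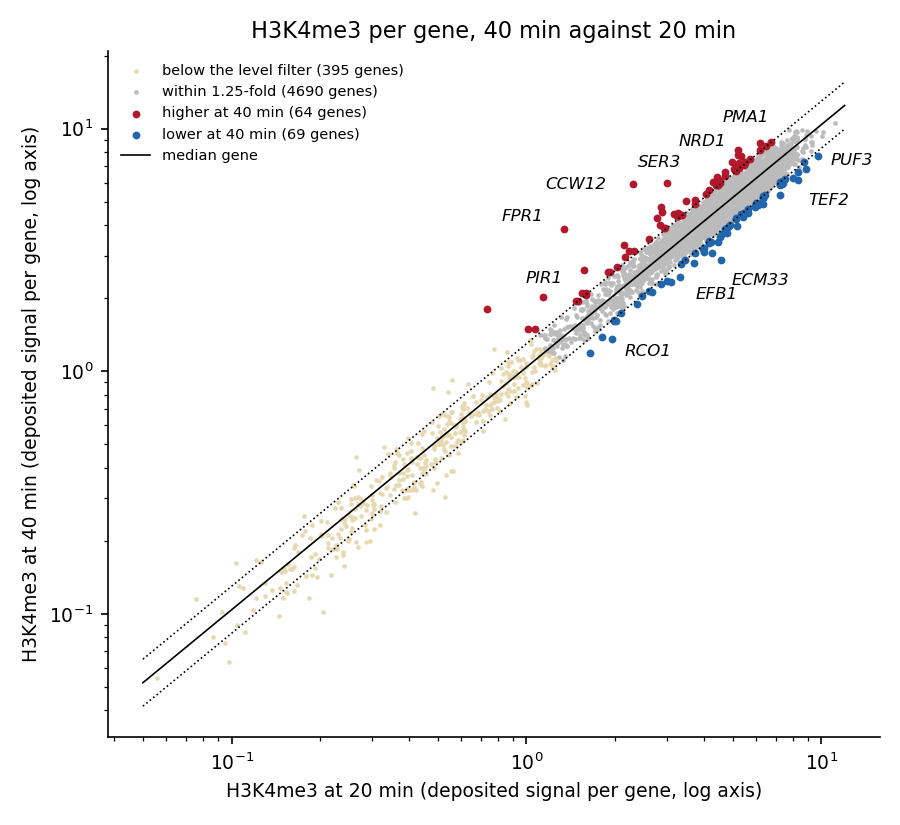
H3K4me3 signal of each gene at 40 min (vertical) against 20 min (horizontal), both as deposited on log axes; the solid line is the median gene, the dotted lines are the fold limit on either side of it, and colours give the call. Of the kept genes 64 lie above the dotted lines and 69 below; *FPR1*, *CCW12* and YMR013W-A, the unlabelled red point at the far left, stand furthest above the median gene.

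Genes whose signal was at or above the median of all genes were read first. With the kept genes cut into 5 equal groups by mean signal, 4.77% of the lowest group were past the limit, 1.45% of the middle group and 3.11% of the highest group, so the share was not lowest where signal was highest.

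The 12 highest relative steps among them included those of *NRD1*, *HRP1* and *PMA1*. *NRD1* (chromosome XIV, 172588 to 174315), an RNA-binding subunit of the complex that ends transcription of short noncoding RNAs, had a signal of 7.69 at 40 min, against 5.32 at 20 min, a relative step of 0.48. *HRP1*, a factor of mRNA 3' end cleavage, had 7.20 at 40 min, against 5.27 at 20 min (0.39). The proton pump gene *PMA1* (chromosome VII, 479910 to 482666) had 8.71 at 40 min, against 6.20 at 20 min (0.44). All 3 were higher at 40 min under either scaling given above.

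Also on this side were *GLN1*, glutamine synthetase, with 6.33 at 40 min, against 4.44 at 20 min (0.46), and *TSA1*, a peroxidase of the thioredoxin system, with 7.06 at 40 min, against 5.17 at 20 min (0.39). *CDD1*, cytidine deaminase, had 6.14 at 40 min, against 4.49 at 20 min (0.40). *KEX1*, a protease of the secretory pathway, had 6.60 at 40 min, against 4.73 at 20 min (0.43). All 4 encode enzymes. The sporulation gene *SPO24* (0.44), the mitochondrial protein gene *QRI5* (0.49) and *SYO1* (0.38), which encodes an import factor for ribosomal proteins, were also among them. The reading frames YDR133C (0.58) and YDR524C-B (0.53) complete the 12 highest and had the largest steps of these. YDR133C has no coordinates here, so its overlap with other genes was not checked.

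Of the 12 lowest, 5 are on the lists of ribosomal protein and translation factor genes, which hold 3.18% of the 2609 genes at or above the median signal. *TEF2* (chromosome II, 477671 to 479047), 1 of a pair of genes for the elongation factor that brings tRNAs to the ribosome, had 6.17 at 40 min, against 8.36 at 20 min, a relative step of -0.49. The ribosomal protein genes *RPL17B* (-0.40), *RPL39* (-0.39), *RPL4A* (-0.38) and *RPL35B* (-0.38) were the others. *RPL4A* had 6.65 at 40 min, against 8.35 at 20 min. Most ribosomal protein genes and *TEF2* have near-identical copies, and reads could be split between copies, so their values are uncertain.

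*BUR6* (chromosome V, 491530 to 491958), a subunit of the NC2 regulator of TATA-binding protein, had 5.35 at 40 min, against 7.22 at 20 min (-0.49). *SWR1*, the ATPase that installs the histone variant H2A.Z, had 4.87 at 40 min, against 6.33 at 20 min (-0.43). *EAF1*, the scaffold of the NuA4 acetyltransferase, had 4.74 at 40 min, against 5.96 at 20 min (-0.39). These 3 encode nuclear factors of transcription and chromatin. *YAP1*, the transcription factor of the oxidative stress response, had 6.81 at 40 min, against 8.85 at 20 min (-0.43), and *PUF3*, which binds mRNAs of mitochondrial proteins, had 7.70 at 40 min, against 9.76 at 20 min (-0.40). *BMH2*, a 14-3-3 protein, was at -0.40 and *LAF1* at -0.39.

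The 60 min library gives a later level for the same genes. Set out in order of time, *NRD1* had 5.32, 7.69 and 7.46 at 20, 40 and 60 min, *GLN1* had 4.44, 6.33 and 6.49, and *SPO24* had 4.29, 6.03 and 7.26. *YAP1* had 8.85, 6.81 and 4.74, and *BUR6* had 7.22, 5.35 and 4.12. Of the 12 highest genes, 4 were above their 40 min level at 60 min, and 12 of the 12 lowest were below it. Over all genes 95.6% were below their 40 min level at 60 min, with a median log2 ratio of -0.18, so a lower 60 min level was the usual case. The 40 min library is shared by both steps, so a low or high 40 min value bears on both.

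**Figure D2:**
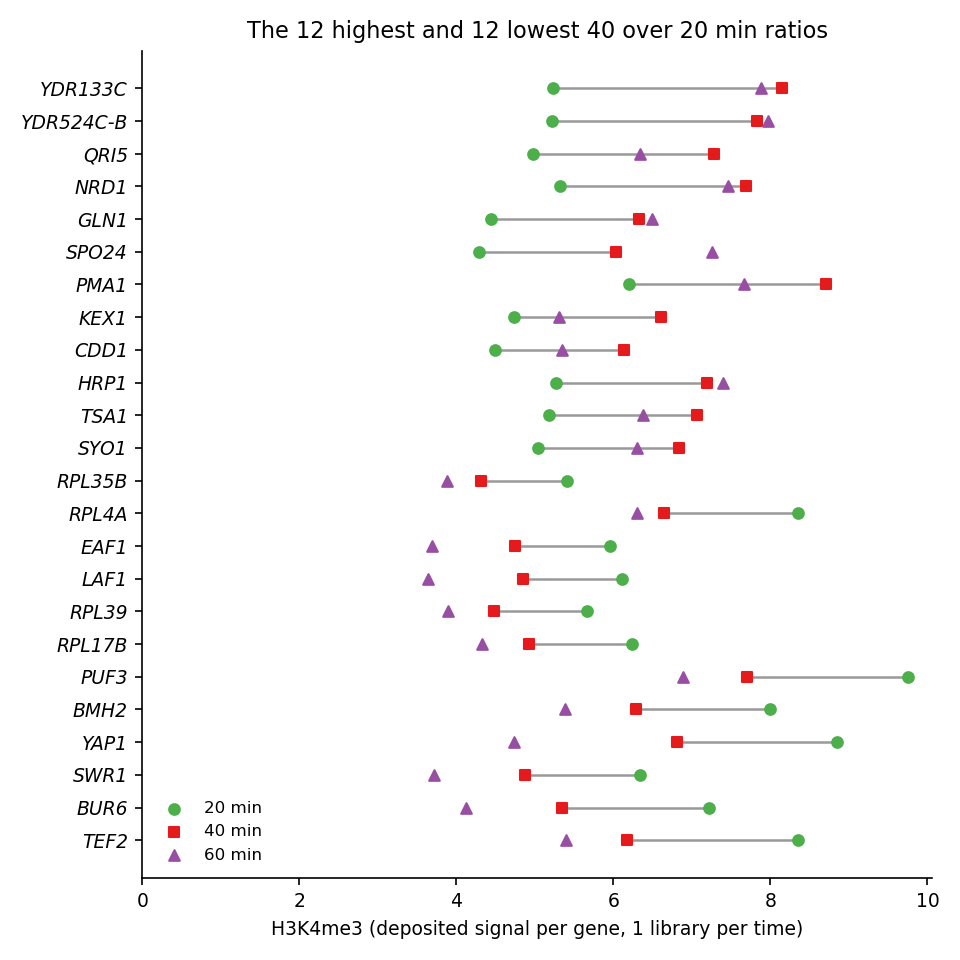
H3K4me3 signal (deposited units) of the 12 genes with the highest and the 12 with the lowest relative step among genes at or above the median level, with points for 20, 40 and 60 min in order of time. Each of the 12 lower genes, such as *BUR6* with 7.22, 5.35 and 4.12, has its 60 min point below its 40 min point, and 4 of the 12 higher genes have it above.

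The most extreme ratios lay among genes of lower signal. *CCW12* (chromosome XII, 369697 to 370098), which encodes a major mannoprotein of the cell wall, had 5.89 at 40 min, against 2.30 at 20 min, a relative step of 1.30. *SER3* (chromosome V, 322686 to 324095), an enzyme of serine synthesis, had 5.95 at 40 min, against 2.99 at 20 min (0.94). Its region overlaps 1 other annotated gene. At 60 min the signal was 6.13 at *CCW12* and 6.18 at *SER3*, so both were far from their 20 min levels at both later times.

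*PIR1* (chromosome XI, 141794 to 142819), another cell wall protein, had 2.02 at 40 min, against 1.13 at 20 min (0.78), with the 20 min value under the filter's floor, and *MFA2*, a gene for the mating pheromone a-factor, had 2.60 at 40 min, against 1.57 at 20 min (0.68). *GLK1*, glucokinase, had 4.51 at 40 min, against 2.88 at 20 min (0.59), and overlaps 1 other annotated gene. *PRY1*, a sterol-binding secreted protein chosen after its value was seen, had 4.74 at 40 min, against 2.85 at 20 min (0.68). YMR013W-A, also chosen after its value was seen, had 1.81 at 40 min, against 0.73 at 20 min, a fold of 2.37 relative to the median gene, and was kept only through its 40 min value.

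On the lower side the lowest was *ECM33* (chromosome II, 393123 to 394742), a gene for a protein anchored at the cell surface, chosen after its value was seen. It had 2.87 at 40 min, against 4.56 at 20 min, a relative step of -0.72. *RCO1*, of the Rpd3S deacetylase that reads H3K36 methylation, had 1.35 at 40 min, against 1.95 at 20 min (-0.58). *EFB1*, an exchange factor of the elongation cycle, had 3.07 at 40 min, against 4.26 at 20 min (-0.52). *RCO1* and *EFB1* each overlap 1 other annotated gene. *ACT1*, the actin gene, had 2.76 at 40 min, against 3.35 at 20 min (-0.34).

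The strain's altered genes were read as a check of the labels. *FPR1*, the gene for the rapamycin-binding protein (chromosome XIV, 371882 to 372226), is labelled deleted, but had a signal of 3.86 at 40 min, against 1.34 at 20 min, and 1.04 at 60 min. Its relative step of 1.48 was the highest of all kept genes. Its H3K36me3 signal was 0.240 at 40 min, against 0.0335 at 20 min. The neighbours *EAF7* (0.00) and YNL134C (-0.07) were near the median gene in H3K4me3. The signal at *FPR1* thus did not match its label, and the reason was not tested. The 40 min H3K4me3 library enters every relative step. *HIS3*, labelled his3D1, had 6.27 at 40 min, against 6.98 at 20 min, and *TOR1*, labelled tor1D1, had 5.12 at 40 min, against 5.04 at 20 min, so signal was present at both genes. Which part of them is altered is not given in the sources used here. Of the possible anchor genes, which are near-identical copies, *RPL13A* had a relative step of -0.13 and *RPL13B* of 0.08. *LEU2* and *URA3* are not analysed here. The mating type matched the label, since *STE2*, the receptor gene of MATa cells, had 6.87 at 40 min and 5.90 at 20 min, whereas *STE3*, that of the other type, had 0.199 at 40 min and 0.248 at 20 min.

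Groups of genes were then compared with the median gene, and their counts are set beside those over all kept genes, of which 51.2% lay above the median gene and 48.8% below. A smaller fold of 1.1, added after the data were seen, passed 16.9% of kept genes on the higher side and 16% on the lower side. With scaling to the lowest genes and no centring, all 28 list medians were above 0, from 0.03 for ribosomal protein genes to 0.31 for histone genes, so below the median gene does not mean below the 20 min level. Besides the ends of a list and its member of highest signal, any member named was chosen after its value was seen.

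Histone genes had the highest median of the lists. All 10 measured histone genes lay above the median gene, 8 of them past 1.1-fold, and their median relative step was 0.19. *HTA1* (chromosome IV, 915530 to 915928), which encodes histone H2A, had 3.31 at 40 min, against 2.15 at 20 min (0.57). *HHT1*, which encodes histone H3, had 2.56 at 40 min, against 1.90 at 20 min (0.38). Its divergent partner *HHF1*, for histone H4, had 4.36 at 40 min, against 3.24 at 20 min (0.37).

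The remaining core genes had smaller steps. They were 0.23 for *HTB1*, 0.21 for *HHF2*, 0.15 for both *HTA2* and *HTB2* and 0.09 for *HHT2*. The H2A.Z gene *HTZ1* had 8.91 at 40 min, against 8.06 at 20 min (0.09), and the linker histone gene *HHO1* had 7.92 at 40 min, against 6.72 at 20 min (0.18). Each of the 4 core pairs transcribed from a shared intergenic stretch had both members above the median gene. The histone genes were above under either other scaling too, with medians of 0.19 under equal totals and 0.31 against the lowest genes, before centring on the median gene. Core histone genes exist in near-identical copies, so their single values are uncertain.

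**Figure D3:**
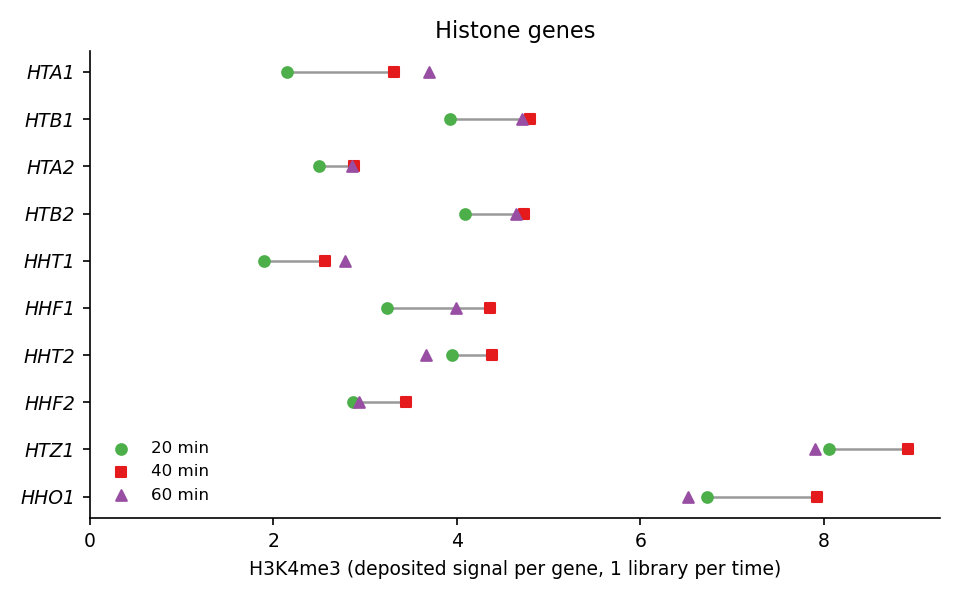
H3K4me3 signal (deposited units) of the 10 histone genes at 20, 40 and 60 min in order of time. All 10 are higher at 40 min than at 20 min, from *HTA1* (3.31 at 40 min, against 2.15 at 20 min) to *HTZ1* (8.91 at 40 min, against 8.06 at 20 min).

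Genes of protein synthesis lay to the lower side. Of 136 kept genes for cytosolic ribosomal proteins, 97 were below the median gene and 39 above, with a median relative step of -0.09. Past 1.1-fold, 51 were lower and 7 higher, which is 37.5% and 5.15% of the list. Large-subunit genes had a median of -0.11 over 80 genes, and small-subunit genes -0.07 over 56. As a plain ratio the median of all 136 was -0.04 as deposited and -0.10 with equal totals, against 0.03 with scaling to the lowest genes, so the sign of the plain ratio turns with the scaling.

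Single ribosomal protein genes differed within pairs of copies. *RPL4A* was at -0.38 and *RPL4B* at 0.08, and *RPL17B* was at -0.40 and *RPL17A* at -0.03. The highest was *RPS28A*, with 3.91 at 40 min, against 2.94 at 20 min (0.36), while its copy *RPS28B* was at -0.20. Both copies of a pair can share reads, so these contrasts are uncertain.

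Translation factor genes were on the same side. Of 37, 26 were below the median gene and 11 above, with a median of -0.05, and 11 were past 1.1-fold lower against 1 higher. *EFB1* and *TEF2* were past the limit on the lower side, as was *TEF1*, with 5.84 at 40 min, against 7.22 at 20 min (-0.36). The helicase gene *DED1* (0.09) and the initiation factor gene *SUI3* (0.16) were above the median gene. Among 20 aminoacyl-tRNA synthetase genes the median was -0.06, with 6 past 1.1-fold lower and 0 higher, and *CDC60*, for leucine, was lowest at -0.29. As plain ratios the medians as deposited were 0.0051 for translation factors and -0.0053 for synthetases. With scaling to the lowest genes they were 0.07 and 0.06, and with equal totals -0.05 and -0.06.

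Genes that build ribosomes or transcribe their parts lay nearer the median gene. The 120 kept ribosome biogenesis genes had a median of 0.03, with 69 above the median gene and 51 below, and 0 past the limit on either side. The lowest was *RLP24* (-0.30) and the highest *NAN1* (0.31), and the nucleolar methyltransferase gene *NOP1* had 9.16 at 40 min, against 7.94 at 20 min. Genes of RNA polymerase I had a median of -0.01 over 11, with 7 below and *RRN11*, an initiation factor gene, past the limit (-0.34), those of RNA polymerase III had 0.03 over 11, and 12 RNAPII genes had 0.04. *RPO21*, the largest RNAPII subunit, had 9.37 at 40 min, against 10.1 at 20 min (-0.16).

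In energy metabolism, more genes were above the median gene. Of 19 kept genes of the TCA and glyoxylate cycles, 15 were above it, with a median of 0.08. *CIT2*, the peroxisomal citrate synthase, had 4.91 at 40 min, against 3.80 at 20 min (0.32, short of the limit), while *MDH3*, a peroxisomal malate dehydrogenase, was at -0.27. Of 40 respiratory chain and ATP synthase genes 28 were above (median 0.05), as were 48 of 69 mitochondrial ribosomal protein genes (median 0.04). No kept member of these 3 lists was past the limit.

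Glycolysis and fermentation genes had a median of 0.07 over 20, and 9 were past 1.1-fold higher, against 3 lower. The aldolase gene *FBA1* had 8.82 at 40 min, against 7.33 at 20 min (0.21). *TDH3*, for glyceraldehyde phosphate dehydrogenase, had 6.61 at 40 min, against 5.24 at 20 min (0.28), and *ENO2*, for enolase, had 6.87 at 40 min, against 5.33 at 20 min (0.31). The phosphofructokinase gene *PFK1* was on the other side (-0.20). Reads of *TDH3* and *ENO2* can be shared with near-identical copies.

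Biosynthetic lists were split. The purine genes had 14 of 16 below the median gene, a median of -0.10, and 6 past 1.1-fold lower, against 0 higher. Pyrimidine and deoxynucleotide genes had 8 of 12 above it, with *URA1*, of pyrimidine synthesis, as the lowest (-0.34) and the ribonucleotide reductase gene *RNR2* as the highest (0.21). Amino acid genes had a median of -0.03 over 60, with 24 above the median gene and 36 below. The 2 past the limit, *SER3* and *GLN1*, were both higher. *SER33* was lowest, with 4.81 at 40 min, against 5.47 at 20 min (-0.24). Sterol genes had 18 of 25 below and a median of -0.04, with *ERG25* lowest (-0.32, short of the limit) and *ERG3* highest (0.24). The 25 sulfur and methionine genes had a median of 0.01, or -0.0029 without the filter, between *MET8* (-0.40) and *MET2* (0.34).

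The cell surface list held the steps of *CCW12* and *PIR1* together with many small ones. Of 36 kept cell wall and daughter separation genes 24 were above the median gene, with a median of 0.10, and 3 were past the limit, all higher. These were *CCW12*, *PIR1* and *HSP150*, a relative of *PIR1* with 5.05 at 40 min, against 3.47 at 20 min (0.49), and *PIR1* was kept only through its 40 min value. The glucanase gene *BGL2* was lowest (-0.17). *ECM33* was not on the list. The 10 daughter separation genes had a median of 0.09, with 8 above. Among 26 transporter genes the median was -0.01, with *PMA1* highest and the ammonium permease gene *MEP3* lowest (-0.32, short of the limit).

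Genes of the machinery that places and reads the 2 marks lay on both sides of the median gene. Of 27 genes for H3K4 and H3K36 methylation 18 were below it and 9 above. Their median was -0.04, with quartiles of -0.12 and 0.07, and 3 were past the limit, all lower. These were *RCO1*, the COMPASS subunit gene *SHG1*, with 3.10 at 40 min, against 3.99 at 20 min (-0.42), and the H2B deubiquitinase gene *UBP10*, with 3.90 at 40 min, against 4.78 at 20 min (-0.35). *SET1*, the H3K4 methyltransferase gene, had 6.42 at 40 min, against 6.47 at 20 min (-0.07). The 5 genes of the Paf1 complex, which assists Set1, ran from *PAF1* (-0.30) to *RTF1* (0.26). Their median was 0.11, with 3 above the median gene and 2 below.

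Termination and 3' end genes had members on both sides and a median of 0.00 over 25. The 3 past the limit were *NRD1*, *HRP1* and *SEN1*, the helicase that acts with Nrd1, which had 5.87 at 40 min, against 4.46 at 20 min (0.34). *NAB3*, the third partner of that complex, was below the median gene (-0.17). The phosphatase gene *GLC7* was lowest (-0.26).

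Among coactivators, 17 of 25 Mediator genes were above the median gene, with a median of 0.07 and 7 past 1.1-fold higher, against 0 lower. *RGR1*, a scaffold subunit of Mediator, had 7.31 at 40 min, against 5.52 at 20 min (0.35). The 27 SAGA and TFIID genes had a median of -0.01, and the SAGA gene *NGG1* was lowest of the combined list (-0.32, short of the limit).

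Stress lists were mixed. Redox genes had a median of 0.09 over 21 and held *TSA1* and *YAP1* at their ends. General stress genes had 0.07 over 20, between the stress factor gene *MSN2* (-0.28) and *TFS1* (0.42), which was kept only through its 40 min value. Without the filter the median over all 30 measured general stress genes was -0.02, so the list's side turns with the filter. Heat shock genes had -0.02 over 28, with *HSP82*, an Hsp90 gene, highest (0.29), and proteasome genes had -0.03 over 33. Cyclin and cell cycle genes had 0.06 over 28, from *SWI6*, of the G1 transcription factors (-0.37), to the cyclin gene *PCL1* (0.32, short of the limit). Replication genes had -0.02 over 45. Mating genes had -0.02 over 22. Of 7 measured meiosis genes 4 were kept, among them *UME6* (0.30), *SPO12* (0.08) and *RED1* (-0.27).

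**Figure D4:**
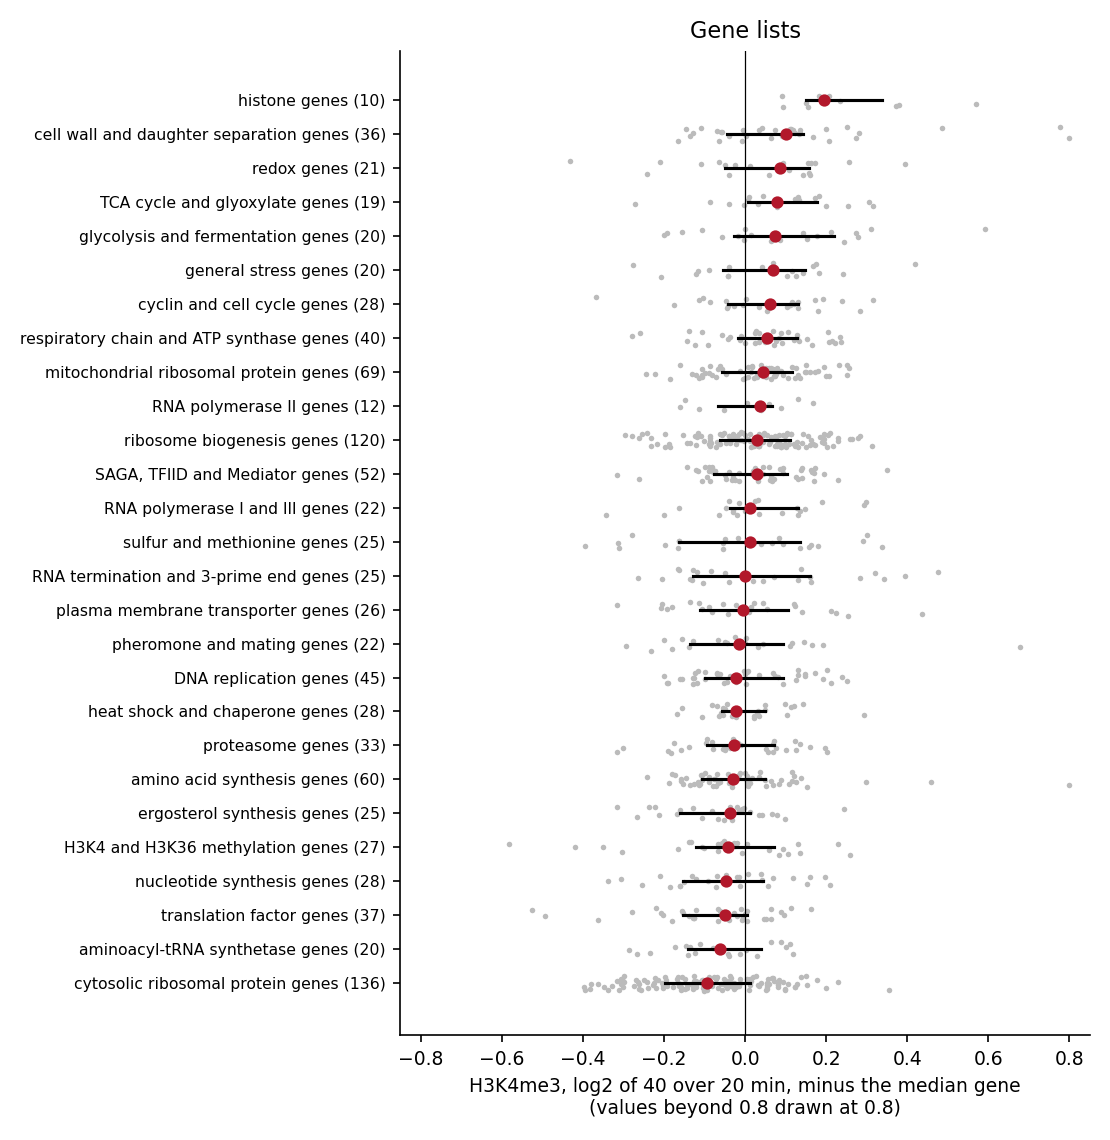
Relative step (log2 of 40 min over 20 min, minus the median gene) by gene list, with a grey point for each kept member, a red point for the list's median and a black bar for its quartiles; values beyond 0.8 are drawn at 0.8. Histone genes lie furthest to the higher side with a median of 0.19, and ribosomal protein genes furthest to the lower side with -0.09, which is 0.03 uncentred with scaling to the lowest genes.

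H3K36me3 was measured in other libraries of the same times. The labels do not say whether both marks came from the same cultures, so the steps of the 2 marks may not be independent. The H3K36me3 signal summed to 5034 at 40 min, against 4822 at 20 min. Its median log2 ratio was 0.05, and it was centred on its own median gene. Of the 64 genes with higher H3K4me3, 43 lay above the median gene in H3K36me3 too (67.2%), against 49.3% of all kept genes. The 43 include the 4 genes kept only through their 40 min H3K4me3 value. These were YMR013W-A (1.69), *PIR1* (0.67), *PST1* (0.21) and *TFS1* (0.12). *FPR1*, labelled deleted, is also counted, so the share rests in part on these genes. The median H3K36me3 relative step of all 64 was 0.21, with quartiles of -0.10 and 0.46. Of the 69 genes with lower H3K4me3, 48 lay below in H3K36me3 (background 50.7%), with a median of -0.10.

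Several genes stood high in both. *CCW12* had an H3K36me3 relative step of 1.43, *SER3* of 0.96, *SPO24* of 0.87, *NRD1* of 0.63 and *PMA1* of 0.54. *FPR1*, labelled deleted, was at 2.79. On the lower side *ECM33* was at -0.53, *PUF3* at -0.45 and *BUR6* at -0.40. *TOP1*, the topoisomerase I gene chosen after its value was seen, had -1.56 beside an H3K4me3 relative step of -0.46. Others did not pair up, such as *BMH2*, at 0.32 in H3K36me3, and *TEF2*, at -0.08.

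Over all kept genes the relation was weak. Spearman's rho between the steps was 0.10 over 4823 genes, all read from the same 4 libraries. With genes cut into 5 equal groups by their H3K36me3 step, the median H3K4me3 relative step was 0.03 in the highest group, against -0.01 in the lowest. The highest group held 31 of the 64 higher genes, and the lowest held 26 of the 69 lower genes. Histone genes were above in H3K36me3 in 8 of 10 cases, with a median of 0.22, whereas ribosomal protein genes had a median of -0.02 there.

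**Figure D5:**
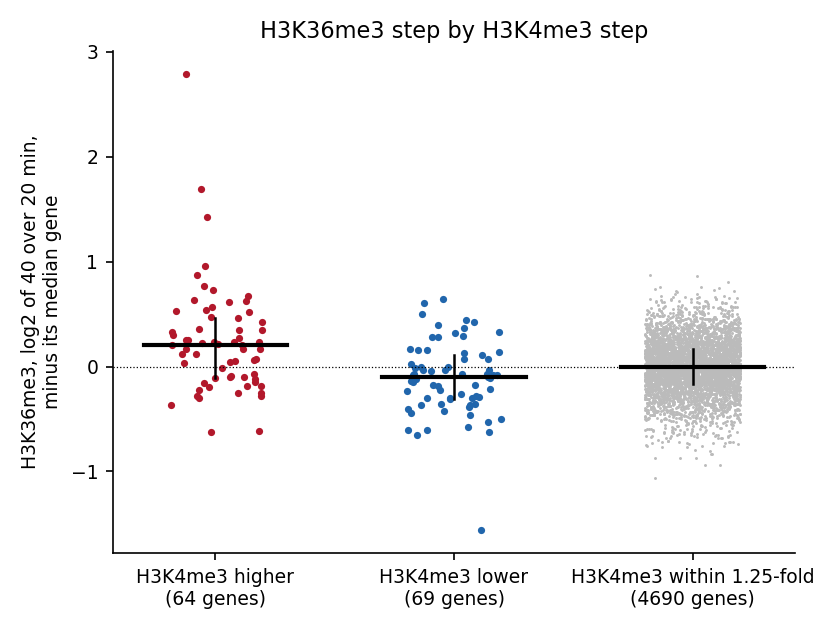
H3K36me3 relative step (log2 of 40 min over 20 min, minus its median gene) of genes grouped by their H3K4me3 call, with a point per gene, a wide bar at the median and a thin bar for the quartiles. The 64 higher genes have a median of 0.21 and the 69 lower genes -0.10, with wide overlap. The 64 include *FPR1* and the 4 genes kept only through their 40 min H3K4me3 value. The highest point is *FPR1* (2.79) and the lowest is *TOP1* (-1.56).

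Short genes were more frequent on the higher side. With matched genes cut into 5 equal groups by length, the shortest, 78 to 696 bp, had a median relative step of 0.03, and the other groups were between -0.0050 and 0.0034. That shortest group held 26 of the higher genes and 9 of the lower genes, against 7 to 11 higher and 13 to 16 lower in each other group. The median length was 903 bp for the higher genes and 1377 bp for the lower genes. The part of length in these results was not tested. Medians by chromosome ran from -0.01 on VI to 0.03 on III. Neighbouring genes did not share their steps as a rule. For 1057 divergent pairs rho was 0.03, for 1839 tandem pairs it was -0.00029, and for 1101 convergent pairs it was 0.03. In 311 divergent pairs within 300 bp it was 0.12, and 52.4% of them lay on the same side of the median gene.

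Single neighbours, named after their values were seen, varied. *GID7*, next to *GLK1*, was at 0.41, *SCP160*, next to *PRY1*, at 0.33, and *MUD1*, downstream of *TEF2*, at -0.33, so each was past the limit on the side of its neighbour. YOR292C (0.33) and its neighbour *RPS10A* (-0.33) were past it on opposite sides. Among pairs with a member past the limit, 22 of 50 divergent, 49 of 97 tandem and 28 of 55 convergent pairs lay on the same side. Over all such pairs the shares were 51.0%, 51.3% and 51.9%. *MRPL17* (0.03) and *RAD50* (-0.02) beside *NRD1* were near the median gene. Overlap with another annotated gene was found for 2 of 61 matched higher genes and 3 of 67 matched lower genes, against 1.83% of all matched genes. Reads of overlapping genes cannot be told apart here.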

How the data were processed

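The authors deposited a signal value per gene in 1 table with 8 columns, each for 1 mark at 1 time. The submitters' processing notes list Bowtie2, SAMtools and bedtools, and the builds sacCer3 and ASM294v2. Whether signal was divided by input, length or spike-in, and over which stretch, is not given in the sources used here. Column headings carry no library type and were read as immunoprecipitated DNA. Values were linear and not whole, so depth is unknown and no counting interval is given. Of 5222 lines 3 were empty and 1 had a name only, which left 5218 genes. The R64 gene table held 5115 of their systematic names, and 103 have no coordinates here. Strand for neighbours was read from the systematic name.

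Ratios were computed with Python 3.11.15, pandas 2.3.3, numpy 2.4.6 and scipy 1.17.1, without a pseudocount. The computation was checked on simulated data with less spread among genes than here. That check covers the arithmetic and not how many calls in these data are false. Genes named by rule were, at or above the median signal, the 12 highest and 12 lowest ratios, *ACT1*, *PMA1*, the strain's altered genes, and for each list the member of highest signal and those at both ends. The 29 lists, the rule and the comparison were chosen with earlier results of these data known. Alternatives covered pseudocount, filter, scaling, fold and overlap. Promoter and protein sequences were not used here.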

Additional observations from a re-analysis of the deposited data

How the results depend on the processing

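The median log2 ratio of all genes was 0.06; it was 0.048 with a pseudocount of 10% of the median 20 min signal, -0.0021 with equal totals and 0.12 with scaling to the lowest 5% of genes. The share higher at 40 min was 65.3%; it was 66.9% with the filter, 49.5% with equal totals and 78.9% with the lowest 5% scaling. Genes past the limit, 64 higher and 69 lower, numbered 37 and 34 with the 10% pseudocount, 27 and 30 with a filter at the median signal, 152 and 29 without centring, 8 and 1 at 1.5-fold, and 813 and 772 at 1.1-fold, which was added after the data were seen. Without a filter 84 were higher and 132 lower. Under the lowest 5% scaling, not centred, 13 of 28 list medians were positive where the centred median was negative. That turn joins the scaling with the loss of centring. Among the 13 were those of ribosomal protein genes (0.025), translation factors (0.068) and sterol genes (0.081). As deposited and not centred, the same medians were -0.038, 0.0051 and 0.018. Without the filter 2 turned negative. Over all settings 117 list medians stayed within an interval drawn over the list's own genes. Past it were 20 others, and the ribosomal protein, translation factor and sterol medians under the lowest 5% scaling. Members of a list are not replicates, so the interval is no test. For the 105 genes named by rule, 310 values were within 0.1 and 5 moved, all with the 10% pseudocount (*FPR1*, *TFS1*, *RCO1*, *MFA2*, *CCW12*), and none turned. No paired analysis was possible because each time has 1 library. Precision is limited by that single library, by unknown depth, and by low signal: of 395 genes below the filter 21.0% were past the fold limit.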

Other observations

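Genes below the signal filter were not called, and those named here were chosen after their values were seen. *FBP1*, a phosphatase gene of gluconeogenesis, had 0.89 at 40 min, against 0.63 at 20 min, a relative step of 0.43. *MLS1*, malate synthase of the glyoxylate cycle, had 0.24 at 40 min, against 0.20 at 20 min (0.22). The cell wall gene *TIR3* had 0.39 at 40 min, against 0.56 at 20 min (-0.59). Of the 395 genes below the filter, 20 were past the fold limit on the higher side and 63 on the lower side.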
